A study of Mus musculus with 4 samples.

Results

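The miRNA described here are made without at least one step of the canonical miRNA pathway. There are 10 of them among the 1966 mature miRNA listed in the count tables. The choice was by name, for how their precursors are made and not for their values, but earlier results of these data were known. They come from 6 hairpins in 3 classes. The mirtrons are mmu-miR-877-5p, mmu-miR-877-3p, mmu-miR-1224-5p, mmu-miR-1981-5p and mmu-miR-1981-3p. The miRNA with capped precursors are mmu-miR-320-3p, mmu-miR-320-5p and mmu-miR-484, and those from a small nucleolar RNA are mmu-miR-1839-5p and mmu-miR-1839-3p. The prefix mmu stands for mouse and is mostly left out below.

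Most miRNA precursors are cut first in the nucleus by Drosha with its partner DGCR8 and later in the cytoplasm by Dicer, which releases a duplex of a 5p and a 3p arm. One arm is usually kept in an Argonaute protein, where its seed, the bases near its 5′ end, pairs with target mRNA. A mirtron is a short intron that folds into a hairpin once it has been spliced out and debranched, so that splicing takes the place of Drosha. The precursors of miR-320 and miR-484 begin at the start site of transcription, carry a cap and go to Dicer without Drosha. A miRNA from a small nucleolar RNA is cut out of a longer structured RNA that has another main role in the nucleus.

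Small RNA was sequenced from untreated primary cultures of mouse cortical neurons, with 2 libraries from WT embryos and 2 from transgenic (TgAD) embryos. TgAD neurons carried the APP/PS1 transgenes, which model Alzheimer's disease. PS1 is here a human form of presenilin that lacks an exon, and APP is a mouse/human hybrid with the Swedish mutations. The mouse prion promoter drives these transgenes, chiefly in central neurons, and WT neurons carried none. The embryos were at E16.5 by the labels and at E16 by the study's methods, and the cells of both genotypes were kept for 5 days in vitro in serum-free medium. The methods describe cultures of single embryos as biological replicates, but the labels do not tie a library to an embryo, so p values measure the spread between these libraries.

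The counts summed to between 2070204 and 4811010 reads per library, and 3 reads, taken as the floor, correspond to between 0.746 and 1.28 CPM (counts scaled to the size of the library, after TMM scaling between libraries). Of 6 neuronal marker miRNA, miR-128-3p was at 18297 and 33025 CPM in WT and 84019 and 59695 CPM in TgAD, 2.80-fold higher (edgeR adjusted p = 0.0294), and miR-138-5p at 1653 and 1224 against 1213 and 650.2 CPM (adjusted p = 0.226). miR-129-5p had 5 to 17 reads and miR-124-3p 1 to 7, and both arms of miR-9 were listed at 0. Markers of oligodendrocytes (miR-219a-5p, miR-338-3p) and endothelial cells (both arms of miR-126a) were at 0. Of the leukocyte markers, miR-142a-3p was at 0, miR-142a-5p was at 8.93 and 8.58 CPM in WT and 10.9 and 12.7 CPM in TgAD, and miR-223-3p had 3 and 4 against 8 and 8 reads. Of the erythroid markers, miR-451a was lower in TgAD (its values stand with the further miRNA at the end), miR-144-3p had 0 to 3 reads and miR-486a-5p was at 0, and miR-143-3p of smooth muscle and fibroblasts lay between 704 and 879 CPM with overlapping genotypes. A listed 0 need not mean that a miRNA or cell type was absent, since the options used in counting are not known. The miR-9 arms have 3 loci each, and miR-128-3p, miR-138-5p and miR-129-5p, which had reads, have 2 each. Of other markers at 0, miR-219a-5p has 2 loci and miR-338-3p, miR-142a-3p and miR-126a-3p have 1 each. How reads that fit several loci were counted was not tested. The part of these markers in the results was not tested either.

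The deposited files disagree on the genotype of 1 library. In a second table, of normalized values, whole reads could be recovered for 674 miRNA, and all 674 of its first WT column equalled the counts of the library labelled TgAD replicate 1. Its second WT column equalled WT replicate 1 and its first TgAD column equalled TgAD replicate 2, also for 674 of 674 miRNA, and its second TgAD column matched no count file, with at most 30 of 674 equal. The counts of WT replicate 2 equalled no column of that table, with at most 37 of 674 equal. The table thus gives no second label for that library. The transgenes cannot be read from miRNA counts. Genotypes were taken from the sample labels, and the calls, fold changes and counts below are also given without the library labelled TgAD replicate 1.

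Mature sequences in RefSeq (GRCm38.p6) were found by name for 7 of the 10 miRNA and for miR-1224-3p, the other arm of the miR-1224 hairpin. They are shown because the mirtrons carry the ends of an intron within them. Capitals mark the seed, bases 2 to 8 from the 5′ end.
miR-877-5p: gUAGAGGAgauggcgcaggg
miR-877-3p: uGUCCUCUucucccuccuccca
miR-1224-5p: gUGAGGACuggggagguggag
miR-1224-3p: cCCCACCUcuucucuccucag
miR-1981-5p: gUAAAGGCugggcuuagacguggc
miR-1981-3p: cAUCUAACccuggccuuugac
miR-484: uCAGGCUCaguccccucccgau
miR-1839-5p: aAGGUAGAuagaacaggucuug

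No seed was shared, neither among these sequences nor with any other listed miRNA that had a sequence. The 5p arms of all 3 mirtrons start with GU, the letters that open an intron, and 37 of 695 listed 5p arms (5.32%) do so. The 3p arm of miR-1224 ends with AG, the letters that close an intron, as do 196 of 707 listed 3p arms (27.7%). The 3p arms of miR-877 and miR-1981 stop 1 and 2 bases before the end of their hairpin. The GC content of the mirtron arms ran from 52.4% for miR-1981-3p to 66.7% for miR-1224-5p, that of miR-484 was 63.6% and that of miR-1839-5p was 40.9%, beside a median of 47.8% over 441 tested miRNA with a sequence.

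The annotation of GENCODE M21 on GRCm38 placed each of the 3 mirtron hairpins exactly from end to end of an intron on the strand of its host gene. Mir877 (chromosome 17, 35960730 to 35960814, minus strand) fills intron 12 of Abcf1, an ATP-binding cassette protein that acts in translation. Mir1224 (chromosome 16, 20604452 to 20604536, plus strand) fills an intron of Vwa5b2. Mir1981 (chromosome 1, 184822407 to 184822488, minus strand) fills an intron of Marc2, which encodes a mitochondrial reductase. In another annotated form of Marc2 the intron is 10169 nucleotides long and shares its 3′ end with the hairpin. Over all listed miRNA, 30 of 972 hairpins (3.09%) start with GU and end with AG, and these 3 are among them.

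The other 3 hairpins lie outside such short introns. Mir320 (chromosome 14, 70443510 to 70443591, plus strand) lies 63 nucleotides from the start of Polr3d, a subunit of RNA polymerase III that is encoded on the other strand. Mir484 (chromosome 16, 14159626 to 14159692, plus strand) lies 359 nucleotides from the start of Marf1 and overlaps an exon of 1 Marf1 transcript on the other strand. Mir1839 (chromosome 7, 81529916 to 81529988, plus strand) overlaps an annotated scaRNA (a small RNA of Cajal bodies, related to the small nucleolar RNA) that runs from 81529855 to 81529981. Both lie within the long noncoding gene 2900076A07Rik.

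Counts on mature sequences were not divided by length, and levels below are CPM. In WT the order from high to low was miR-1839-5p, miR-320-3p, miR-484, miR-1981-5p, miR-1839-3p, miR-877-5p, miR-1981-3p, miR-1224-5p and miR-877-3p, and no pair of neighbours overlapped between libraries. In TgAD the order changed at the top, where miR-484 (1285 and 1963 CPM) overlapped with both miR-320-3p (1569.8 and 1631 CPM) and miR-1839-5p (1117 and 1317 CPM). In the middle of the TgAD order, miR-877-5p (106 and 174 CPM) overlapped with miR-1839-3p (127 and 153 CPM) and with miR-1981-3p (58.3 and 110.1 CPM). Ranked by their mean over the 4 libraries among all listed miRNA, miR-1839-5p was at place 58, miR-320-3p at 68, miR-484 at 72 and miR-877-3p at 380.

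**Figure D1:**
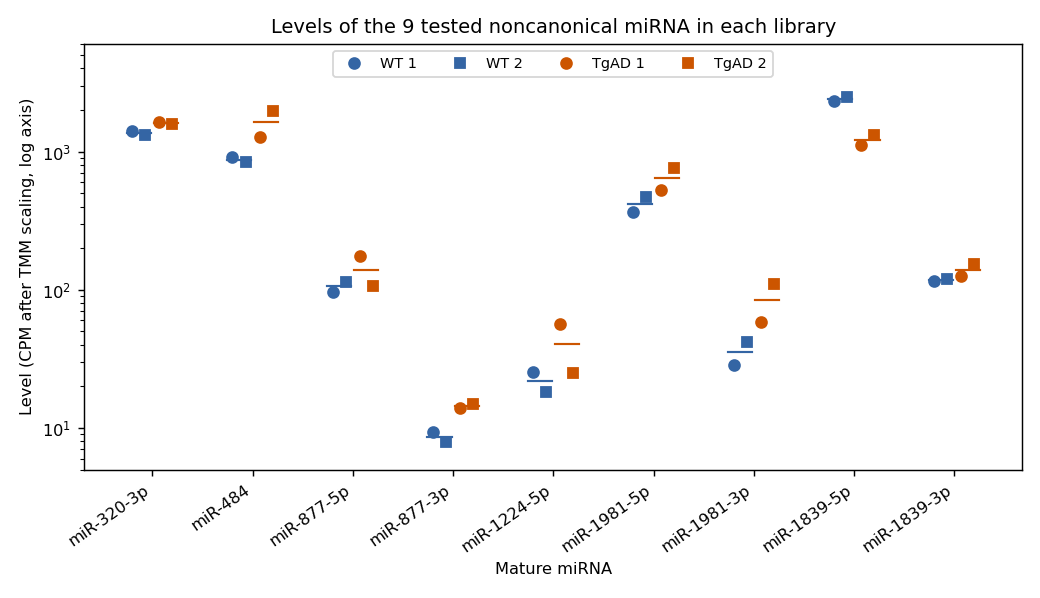
Levels of the 9 noncanonical miRNA that passed the filter on low counts, in CPM after TMM scaling on a log axis, with 1 point per library (blue, WT; orange, TgAD) and a line at each genotype's mean. Both TgAD points of miR-1839-5p (1117 and 1317 CPM) lie below both WT points (2331 and 2500.2 CPM), and those of miR-484, miR-1981-5p and miR-1981-3p lie above.

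Whether the TgAD genotype goes with a change in these miRNA was tested with edgeR (quasi-likelihood test, genotype as the only factor) over the 496 miRNA that passed the filter, with Benjamini-Hochberg adjustment over all 496. A miRNA was called at the study's cutoffs, that is, with more than 0.6 of log2 fold change in either direction and an adjusted p under 0.1. Of the 9 noncanonical miRNA tested, miR-484 and miR-1981-3p rose in TgAD neurons, by 1.86-fold and 2.39-fold, and miR-1839-5p fell by 49.6%. These 3 calls are 33.3% of the 9, and 164 of all 496 miRNA (33.1%) were called, 78 higher (15.7%) and 86 lower (17.3%). In this count the noncanonical miRNA did not stand apart from the rest. Both TgAD libraries lay above both WT libraries for 6 of the 9, and below for 1, where over all tested miRNA this was so for 30.6% and 32.5%. The median log2 fold change was 0.63 over the 9 and 0.032 over all tested miRNA. By total counts 4 of the 9 lay above and 1 below (21.2% and 41.3% over all tested miRNA), and the medians were 0.35 and -0.23. The 2 arms of a hairpin come from 1 precursor, so the 9 are not independent of each other.

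With 2 libraries against 2, an exact permutation test of a single miRNA cannot give a two-sided p below 0.333, so the calls rest on the spread that edgeR shares across miRNA. When total counts were used in place of TMM scaling, the median log2 fold change of all miRNA moved by -0.27 and the 165 calls split into 43 higher and 122 lower. A fall in CPM can come from fewer cells that make a miRNA or from less of it per cell, which cannot be told apart in these cultures. Without the library labelled TgAD replicate 1, 4 noncanonical miRNA were called, the same 3 and miR-1981-5p, beside 180 of all 496, 70 higher and 110 lower. The median log2 fold change over the 9 was then 0.29, beside -0.090 over all tested miRNA. The remaining TgAD library lay above both WT libraries for 6 of the 9 and below for 1, and over all tested miRNA for 42.7% and 43.5%. By total counts it lay above for 4 of the 9 and below for 3, and over all tested miRNA for 27.4% and 58.1%.

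**Figure D2:**
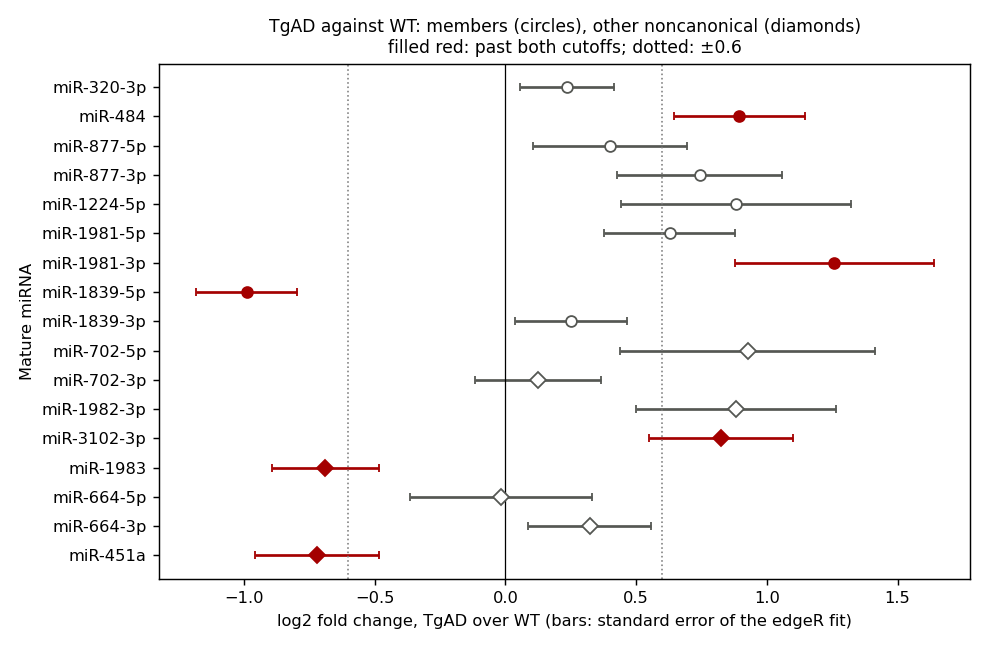
Log2 fold change of TgAD over WT with the standard error of the edgeR fit, for the 9 noncanonical miRNA (circles) and 8 further miRNA with unusual precursors (diamonds), with dotted lines at the cutoff of 0.6. The calls among the 9 are miR-484 (0.90), miR-1981-3p (1.26) and miR-1839-5p (-0.99).

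Of the mirtrons, miR-1981 was the most abundant, and its arms had the order of libraries in common. The 3p arm, the less abundant of the pair, had 67 and 122 reads in WT and 160 and 443 in TgAD, or 28.5 and 41.9 against 58.3 and 110.1 CPM. The groups did not overlap, and TgAD replicate 2 was the highest. The log2 fold change of mmu-miR-1981-3p was 1.26 (SE 0.38, adjusted p = 0.0549, edgeR). The call was lost without TgAD replicate 2 (0.72, edgeR adjusted p = 0.213) and without WT replicate 1 (1.01, adjusted p = 0.108), and it held without TgAD replicate 1 (1.55, adjusted p = 0.0172).

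The 5p arm, mmu-miR-1981-5p, had 853 and 1364 reads in WT and 1455 and 3034 in TgAD, or 363 and 468 against 530.0 and 754 CPM. The lower TgAD library lay close above the higher WT library. Its log2 fold change was 0.63 (SE 0.25, edgeR adjusted p = 0.123) and missed the p cutoff. It was called without TgAD replicate 1 (0.77, edgeR adjusted p = 0.0486) and when only miRNA with at least 10 reads in every library were tested (0.60, adjusted p = 0.0972).

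The miR-877 hairpin gave 228 and 333 reads of its 5p arm in WT and 478 and 425 in TgAD, or 97.0 and 114 against 174 and 106 CPM. TgAD replicate 2 lay between the WT libraries, so the groups overlapped. The log2 fold change of mmu-miR-877-5p was 0.40 (SE 0.29, edgeR adjusted p = 0.370). It depended on 1 library, at -0.087 without TgAD replicate 1 and 0.72 (edgeR adjusted p = 0.0965) without TgAD replicate 2. The 3p arm, mmu-miR-877-3p, had only 22 and 23 reads in WT and 38 and 60 in TgAD, or 9.36 and 7.90 against 13.8 and 14.9 CPM. These groups did not overlap, but the log2 fold change of 0.74 (SE 0.32) missed the p cutoff (edgeR adjusted p = 0.143), as did that of 0.71 without TgAD replicate 1 (adjusted p = 0.227).

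From the miR-1224 hairpin, the 5p arm had 60 and 53 reads in WT and 154 and 100 in TgAD, or 25.5 and 18.2 against 56.1 and 24.9 CPM. Only TgAD replicate 1 stood above the others, and the second TgAD library lay between the WT libraries. The log2 fold change of mmu-miR-1224-5p was 0.88 (SE 0.44, edgeR adjusted p = 0.208). It was 0.11 without TgAD replicate 1 and 1.37 (edgeR adjusted p = 0.0408) without TgAD replicate 2. It also passed both cutoffs without WT replicate 1 (1.14, adjusted p = 0.0999) and with no filter on low counts (0.85, adjusted p = 0.0762). The 3p arm, miR-1224-3p, had 0 reads in both WT libraries and 2 in each TgAD library, all under the floor of 3 reads, and no fold change is given.

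The miRNA with capped precursors differed from each other. mmu-miR-484, which has been described as a repressor of the mitochondrial fission gene Fis1, had 2132 and 2446 reads in WT and 3527 and 7896 in TgAD. Its levels were 907 and 839.7 CPM in WT (mean 873 ± 47.6, SD, n = 2) and 1285 and 1963 CPM in TgAD (1624 ± 479, SD, n = 2). The groups did not overlap, and the TgAD libraries lay further apart than the WT libraries. The log2 fold change was 0.90 (SE 0.25, edgeR adjusted p = 0.0439). It remained past the cutoffs without TgAD replicate 1 (1.08, adjusted p = 0.0106). It fell under the fold cutoff without TgAD replicate 2 (0.56, edgeR adjusted p = 0.0933) and just missed the p cutoff with total counts (0.61, adjusted p = 0.104).

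For mmu-miR-320-3p there were 3298 and 3839 reads in WT and 4478 and 6316 in TgAD, or 1403 and 1318 against 1631 and 1569.8 CPM. The TgAD libraries lay above the WT libraries by a small margin, and the log2 fold change was 0.23 (SE 0.18, edgeR adjusted p = 0.384). Without TgAD replicate 1 it was 0.12, and with total counts it was -0.025, so no direction is given. The 5p arm, mmu-miR-320-5p, had 2 and 0 reads in WT and 0 and 1 in TgAD. It was at or under the floor in all 4 libraries and is the 1 of the 10 miRNA that was not tested.

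The smallest p of the 9 belonged to mmu-miR-1839-5p. It had 5480 and 7283 reads in WT and 3067 and 5297 in TgAD, which corresponds to 2331 and 2500.2 CPM in WT (2416 ± 119, SD, n = 2) and 1117 and 1317 CPM in TgAD (1217 ± 141, SD, n = 2). The groups were far apart relative to their spread, and the log2 fold change was -0.99 (SE 0.19, edgeR adjusted p = 0.0192). Leaving out any 1 library moved it between -1.11 and -0.94, with edgeR adjusted p values from 0.0108 to 0.0245, and without TgAD replicate 1 it was -0.96. The 3p arm of the same hairpin, mmu-miR-1839-3p, had 273 and 347 reads in WT and 348 and 615 in TgAD, or 116 and 119 against 127 and 153 CPM. Its log2 fold change was 0.25 (SE 0.21, edgeR adjusted p = 0.432). It was 0.29 without TgAD replicate 1 and -0.022 with total counts.

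Summed by class, the reads of the miR-1839 arms made up 0.278% and 0.277% of the WT libraries and 0.124% and 0.123% of the TgAD libraries. Mirtrons made up 0.0594% and 0.0688% in WT and 0.0828% and 0.0844% in TgAD. For the capped class the shares were 0.262% and 0.228% in WT and 0.290% and 0.295% in TgAD. The snoRNA-derived class was thus lower in TgAD and the other classes higher in these shares, which are given without a test. All 10 miRNA together made up 0.497% to 0.5997% of a library's reads.

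The 2 arms of a hairpin are made from the same precursor. Their ratio shows whether both changed alike, and it is computed from the same counts as the levels above. It was tested with edgeR's diffSpliceDGE over the 138 hairpins with both arms tested, where 52 of 276 arms (18.8%) passed an adjusted p under 0.1, and 47 of the 138 hairpins (34.1%) had at least 1 such arm. Of the 3 noncanonical hairpins tested, miR-1839 had 1 such arm and miR-877 and miR-1981 had none, so that 1 of 6 arms passed (16.7%), near the share over all hairpins. The 3p arm took 4.75% and 4.55% of the miR-1839 reads in WT (exact binomial 95% intervals within 4.09% to 5.33%, for counting error only) and 10.2% and 10.4% in TgAD. The mean was 4.65% ± 0.140 in WT and 10.3% ± 0.150 in TgAD (SD, n = 2). The log2 fold change of the 3p arm exceeded that of the 5p arm by 1.24. This shift restates the level changes given above (0.25 for the 3p arm and -0.99 for the 5p arm). It is therefore no separate support for the fall of the 5p arm.

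The test gives each arm a p of its own. It was 0.00666 for the 3p arm of miR-1839 and 0.99996 for the 5p arm (diffSpliceDGE, both adjusted), and the 5p arm held 89.6% to 95.5% of the hairpin's reads. The 3p arm's p was chosen after the values were seen. It held without TgAD replicate 1 (adjusted p = 0.00278) and was lost without WT replicate 2 (adjusted p = 0.122), while the shift itself stayed between 1.21 and 1.27 when any 1 library was left out.

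In miR-1981 the 3p arm took 7.28% and 8.21% of the reads in WT and 9.91% and 12.7% in TgAD. The shift of 0.63 on the log2 scale missed the threshold (diffSpliceDGE adjusted p = 0.438), also without TgAD replicate 1 (0.78, adjusted p = 0.211). In miR-877 it took 8.80% and 6.46% in WT and 7.36% and 12.4% in TgAD, with overlapping groups and a shift of 0.34 (diffSpliceDGE adjusted p = 0.976), which was 0.80 without TgAD replicate 1 (adjusted p = 0.341). All 3 hairpins, and miR-1224 with 98.9% of its reads on the 5p arm, favoured the 5p arm in every library, whereas miR-320 had 99.9% or more of its reads on the 3p arm. Over the 138 hairpins the more abundant arm took a median of 92.0% of the reads (quartiles 70.0% and 98.2%), and it was the 5p arm in 66.

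**Figure D3:**
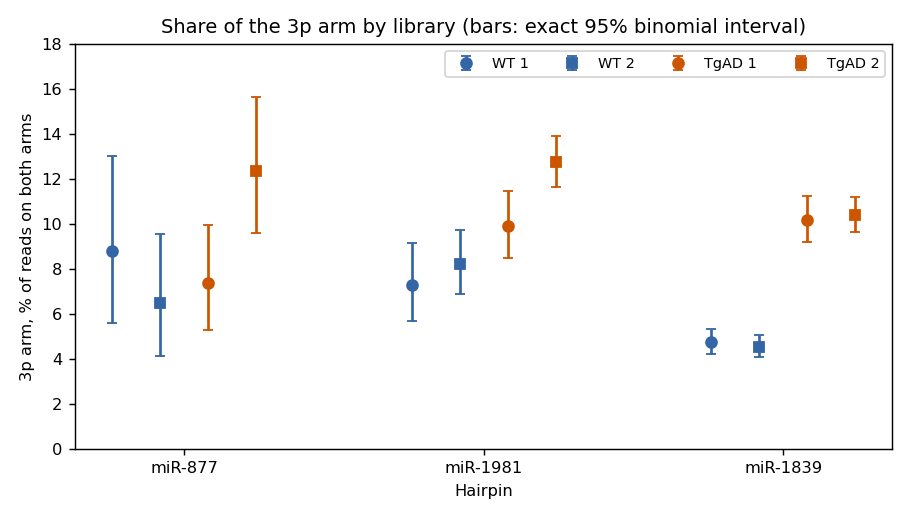
Share of the 3p arm among the reads of both arms for 3 noncanonical hairpins, in % from 0, with 1 point per library and exact binomial 95% intervals. For miR-1839 both TgAD libraries (10.2% and 10.4%) lie above both WT libraries (4.75% and 4.55%), and for miR-877 the genotypes overlap.

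The GC content of a miRNA moved with its fold change in these libraries. Over the 441 tested miRNA with a sequence, Spearman's rho of GC content and log2 fold change was 0.42, as a description over miRNA from the same 4 libraries. The median log2 fold change was 0.25 for 113 miRNA with a GC content of 55% or more and -0.76 for 75 with less than 40%, a split chosen after the values were seen. Without TgAD replicate 1, rho was 0.35 and the medians were 0.086 and -0.79. A local regression of each library on GC content brought rho to 0.017. With this correction miR-1839-5p, at 40.9% GC, was still called (-0.66, edgeR adjusted p = 0.0522), as was miR-1981-3p, at 52.4% (0.98, adjusted p = 0.0810). The call of miR-484, at 63.6% GC, was lost (0.55, edgeR adjusted p = 0.182). For miR-877-5p, at 65.0%, the log2 fold change became 0.01. That of miR-1224-5p went from 0.88 to 0.47, that of miR-877-3p from 0.74 to 0.42 and that of miR-1981-5p from 0.63 to 0.32. Only 7 of the 9 tested noncanonical miRNA have a sequence here (77.8%), so a check of GC content over the whole set is void.

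**Figure D4:**
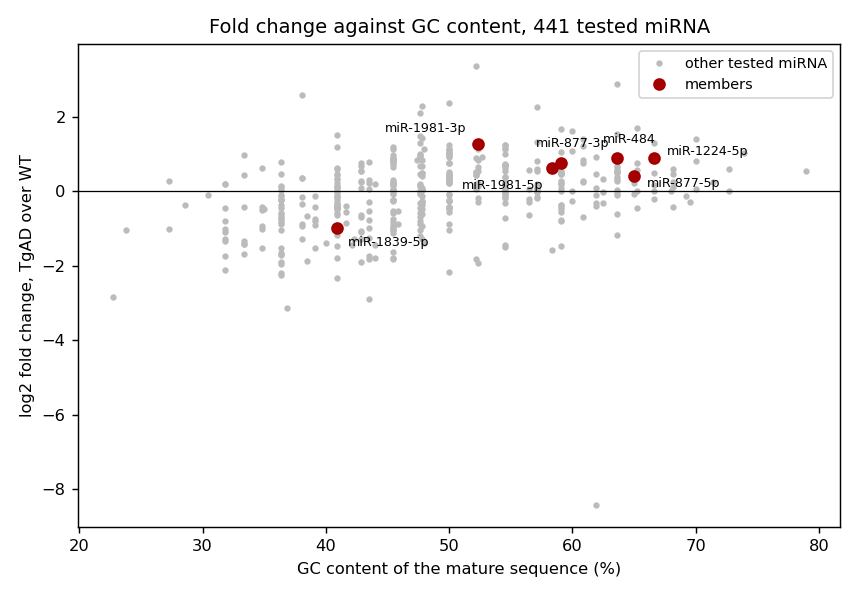
Log2 fold change of TgAD over WT against the GC content of the mature sequence (%) for 441 tested miRNA (grey), with 7 noncanonical miRNA in red. miR-1839-5p (40.9% GC, -0.99) lies among miRNA of low GC content and low fold change, and the other 6, from 52.4% to 66.7% GC, lie above 0.

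**Figure D5:**
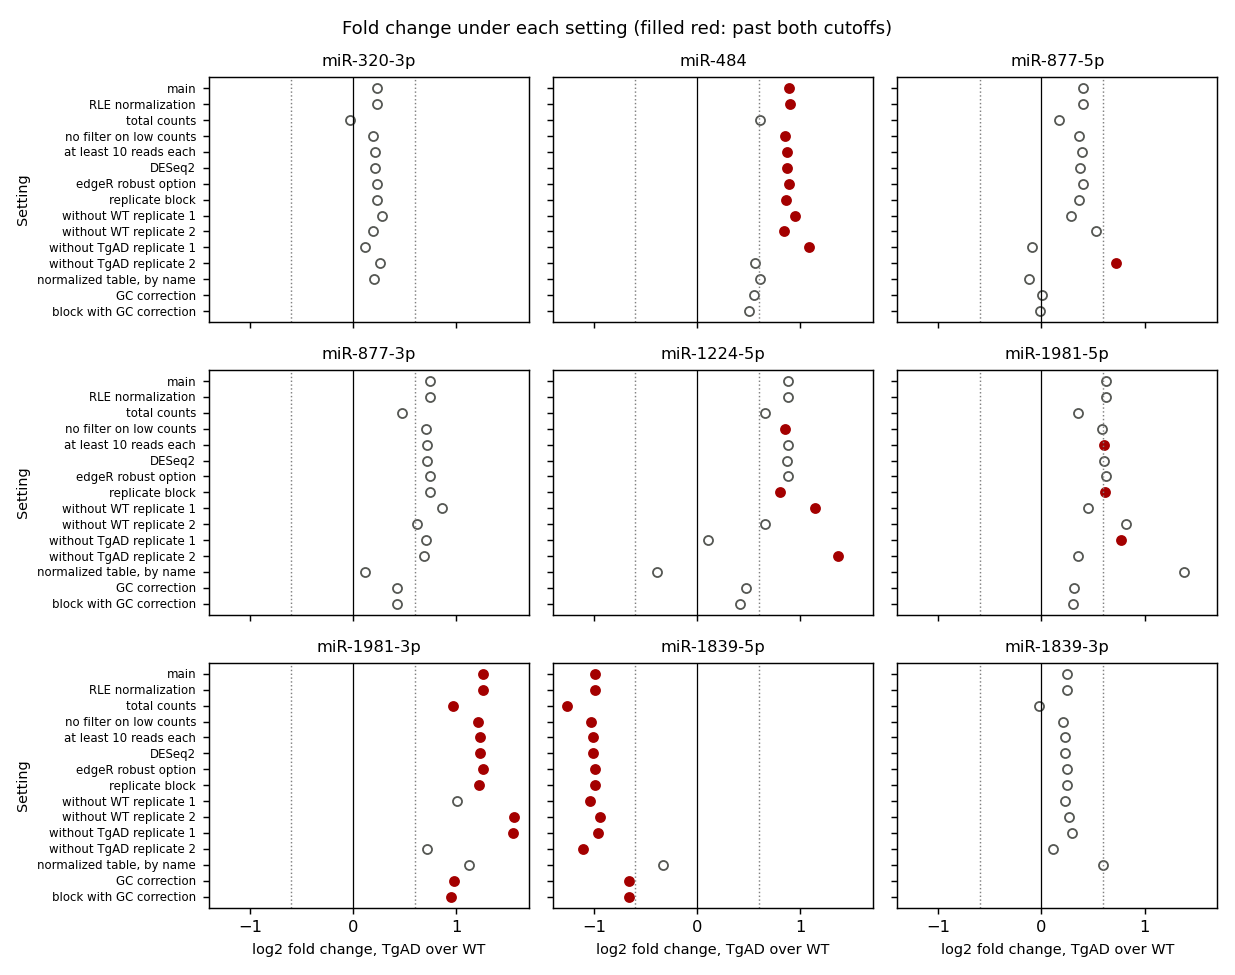
Log2 fold change of TgAD over WT of each of the 9 noncanonical miRNA (panels) under every processing alternative (rows), filled in red where both cutoffs were passed. miR-1839-5p was filled under all alternatives except the use of the normalized table by column name (-0.34), and miR-320-3p, miR-877-3p and miR-1839-3p under none (miR-320-3p and miR-1839-3p have no point for the GC correction).

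The plot of fold changes under each setting also shows which miRNA turned on a setting. miR-484, miR-877-3p and both arms of miR-1981 stayed above 0 throughout, whereas miR-877-5p and miR-1224-5p reached both sides of 0. So did miR-320-3p and miR-1839-3p, which turned with total counts (-0.025 and -0.022). With the normalized table read by column name, edgeR called none of 480 miRNA. In that fit 54 had an unadjusted p under 0.05 and the lowest adjusted p was 0.400. The log2 fold change was then 0.61 for miR-484, 1.12 for miR-1981-3p and -0.34 for miR-1839-5p.

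For comparison, a list of 12 further miRNA with unusual precursors was examined, of which 10 were listed and 8 tested. In edgeR 3 of the 8 were called (37.5%, beside 33.1% of all miRNA), 1 higher and 2 lower. The mirtron arm miR-3102-3p rose (0.82, SE 0.27, adjusted p = 0.0727), from 23.4 and 31.9 CPM in WT to 52.8 and 45.7 CPM in TgAD. miR-1983, which derives from a tRNA, fell (-0.69, SE 0.21, edgeR adjusted p = 0.0530), from 2983 and 3781 CPM to 2156 and 2043 CPM. miR-451a, whose precursor is cut by Ago2 and not by Dicer, is abundant in erythroid cells. It fell as well (-0.72, SE 0.24, edgeR adjusted p = 0.0707), from 1309 and 1330 CPM to 956 and 645.0 CPM. With the GC correction, miR-451a (36.4% GC) was at -0.15 (edgeR adjusted p = 0.696) and miR-3102-3p (60.9% GC) at 0.48 (adjusted p = 0.278). Neither was then called, whereas miR-1983 was (-0.78, edgeR adjusted p = 0.0386). The call of miR-3102-3p was also lost with total counts (0.58, edgeR adjusted p = 0.241) and with DESeq2 (0.80, adjusted p = 0.142).

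Each of these calls was lost in some fit that left out 1 library, and 2 of them held without TgAD replicate 1. miR-3102-3p was lost when any 1 of the 4 libraries was left out, with edgeR adjusted p values from 0.111 to 0.403. miR-1983 was lost without WT replicate 2 (adjusted p = 0.280) and without TgAD replicate 2 (0.119, edgeR), and of these 4 fits miR-451a was called in the 1 without TgAD replicate 1 (-1.12, adjusted p = 0.0124). Another snoRNA-derived hairpin is that of miR-664. Its 5p arm, miR-664-5p, had 14.9 and 15.4 CPM in WT and 18.9 and 11.4 CPM in TgAD (log2 fold change -0.017), and miR-664-3p had 37.4 and 39.8 against 46.6 and 50.0 CPM (0.32), and neither was called (edgeR adjusted p = 0.979 and 0.370). The other mirtron arms tested, miR-702-5p (0.93), miR-702-3p (0.12) and miR-1982-3p (0.88), had log2 fold changes above 0 and missed the p cutoff (edgeR adjusted p = 0.226, 0.742 and 0.150).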

How the data were processed

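Small RNA (TruSeq library kit, 50 bp reads) from cortical neurons was sequenced in 2 WT and 2 TgAD libraries, grouped by the sample labels. The authors mapped adapter-free reads to GRCm38 with Bowtie2 without mismatch, counted them per mature miRNA with HTSeq-count and the miRBase 22.1 annotation, and deposited whole-number counts without normalization, 1 table per library. Tool versions and counting options are not given in the sources used here. A further table deposited by the authors holds normalized values, a signal in which each library's counts are divided by 1 factor. All of its values for 674 miRNA came out as whole multiples of 1 read within a tolerance of 0.1, and the count test on those reads called 0 miRNA. It served only for the check of labels and for 1 alternative.

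Counts were analysed with edgeR 4.0.16 (limma 3.58.1, R 4.3.3) with TMM scaling, filterByExpr, glmQLFit and glmQLFTest, and Benjamini-Hochberg adjustment over all tested miRNA. The standard error is the size of the log2 fold change divided by the square root of F. Arm usage was tested with diffSpliceDGE. Depth was the sum of counts, and the floor of 3 reads and the intervals cover counting error only, since reads carry no molecular identifiers.

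The miRNA and lists were chosen with earlier results of these data known. The rule was to name all 10 miRNA, miR-1224-3p and the 12 further noncanonical miRNA. Alternatives were RLE scaling, total counts, no filter, at least 10 reads in every library, DESeq2 1.42.0, the robust option, a replicate block, a GC correction (local regression, span 0.75), both together, and each library left out. The fit of reads recovered from the normalized table was added after seeing the data. Where only 1 library of a genotype was left, the fit pools the spread over miRNA and assumes that this lone library varies like the others. The fits were tested on simulated counts with a spread common to all miRNA, which real counts need not have. There, 99.0% of 96 miRNA with 4-fold changes and 70.5% of 95 with 2-fold changes were called. Of the 501 miRNA tested, 13 were called though unchanged. For arm usage, 72.1% of 86 shifted hairpins passed, and so did 5 unshifted ones. Sequences came from RefSeq and hairpins from GENCODE M21, and the miR-712 arms were not analysed here. Python 3.11.15 (pandas 2.3.3, SciPy 1.17.1, matplotlib 3.10.9) was used for tables and figures.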

Additional observations from a re-analysis of the deposited data

How the results depend on the processing

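Over the settings tried, between 123 and 188 miRNA were called where all fits of the count files are considered, and 0 with the normalized table by name. The number of noncanonical miRNA called was 3 as reported and 5 with the replicate block. It was 4 with no filter (miR-1224-5p added) and 4 with at least 10 reads in every library (miR-1981-5p added). With the GC correction, alone or with the block, it is not given, because only 7 of the 9 have a sequence. It was 2 (miR-1839-5p and miR-1981-3p) with total counts and 0 with the table by name. Without TgAD replicate 2 it was 3, but these were miR-1839-5p, miR-877-5p and miR-1224-5p. The block kept the 3 calls and added miR-1224-5p (0.80, edgeR adjusted p = 0.0477) and miR-1981-5p (0.62, adjusted p = 0.0254). Deviations of same-numbered libraries correlated at 0.216 over 496 miRNA, but with only 2 pairs and no label for it the numbers were not taken as pairs. The count of the further miRNA called, 3 as reported, became 1 with the GC correction, 1 with block and GC correction, 0 to 2 with 1 library left out and 0 with the table by name. Arm usage gave 1 hairpin, 0 to 1 with 1 library left out and 0 with the table by name, and the GC correction was not run on its count because miR-1839-3p has no sequence. Directions turned for miR-320-3p (-0.025) and miR-1839-3p (-0.022) with total counts, for miR-877-5p with block and GC correction (-0.011), with the table by name (-0.12) and across fits with 1 library left out (-0.087 to 0.72), and for miR-1224-5p with the table by name (-0.39). The arm shift turned for miR-877 (-0.033 to 0.80 with 1 library left out) and for miR-1981 (-0.26 with the table by name). The cause was not tested. At 2 libraries per genotype, miRNA of few reads such as miR-877-3p and miR-1224-5p carry wide errors, and miR-320-5p and miR-1224-3p could not be tested.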

Other observations

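The second TgAD column of the normalized table, which equalled no count file, held 1926952 recovered reads. It entered only the fit of that table by column name, as a TgAD library. Scaled to its own total (CPM without TMM scaling), miR-1839-5p was at 979.8, where the count files gave 2647 and 2646 in WT and 1112 and 1101 in TgAD. miR-1981-5p was at 1078 CPM, above the 412 to 631 of the 4 count files. miR-484 was at 955, between the WT values of 1029.9 and 889 CPM and below the TgAD values of 1279 and 1641. For miR-1224-5p the value was 25.9, for miR-877-5p 99.1 and for miR-320-3p 1319 CPM, each within the range of the count files. miR-1981-3p was at 54.0, between the WT values of 32.4 and 44.3 and the TgAD values of 58.0 and 92.1 CPM. miR-877-3p, at 6.75 CPM, lay below the 8.36 to 13.8 of the count files. miR-1839-3p, at 146.9 CPM, lay above their 126.1 to 131.9.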
